A study of Mus musculus with 4 samples.

Results

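Cx3cr1, Klrg1, Cma1, Itgam, S1pr5, Zeb2 and Spn are genes of the late stages of natural killer (NK) cell maturation. The 7 genes were given by name, in a choice made with earlier results of these data known, so their counts below are a description. They are 7 of the 35275 gene identifiers measured. RNA sequencing was done on spleen NK cells, enriched with a kit and then sorted for NK1.1 and the lack of CD3. The donors were wild-type C57BL/6 mice (WT) and mice labelled Irf4-/-, a label for loss of the gene of the transcription factor IRF4. Either genotype was studied 20 days after an intravenous dose of B16-F10, a line of mouse melanoma cells, or without any such dose. The groups were thus WT and Irf4-/-, each as control and as injected, with 1 library each. The labels give neither the ages of the mice, nor how many mice stood behind a library, nor which part of Irf4 was targeted, nor whether a deletion is limited to NK cells.

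NK cells are innate lymphocytes that kill virus-infected and tumour cells with perforin and granzymes. As they mature in bone marrow and spleen they lose CD27 and gain the integrin CD11b, and the most mature cells also carry KLRG1 and CX3CR1 and circulate in blood. The transcription factors T-bet and ZEB2 drive the last steps of this sequence, including the gain of S1PR5, the receptor through which NK cells leave bone marrow and lymph nodes.

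The libraries held between 15878159 and 21104881 counts, so that a count of 0 allows a level of at most 0.142 to 0.189 CPM (counts scaled to library size), taking 3 counts as the limit. With no replicate, a difference between any 2 libraries compares those libraries and not the conditions. The 95% intervals below cover the error of counting reads only. Even for counts of molecules they may be too narrow, since reads copied by PCR, with no molecular identifier, may stem from 1 molecule. Counts of Irf4, the targeted gene, were 93 in WT control and 57 in WT injected, against 188 and 236 in the control and injected libraries labelled Irf4-/-. It was therefore higher under the knockout label, and counts over the whole gene do not check a deletion whose position is not given. Every genotype direction below rests on the labels. The WT injected library stood apart from the rest, with a median absolute log2 ratio over genes of 0.163 to 0.190 against each of the other libraries, which differed among themselves by 0.102 to 0.128. Ribosomal protein genes took 6.40% of its counts and 4.62% to 5.17% of the others. The summed CPM of 10 NK cell markers ranged from 14261 to 15765. Single markers moved in opposite ways beneath that sum. From WT control to WT injected the intervals of 4 markers were above 0 and those of 6 below, where 32.6% of all genes were below. The granzyme gene Gzma, the highest of the 10, also stands in the maturation lists below, as do Prf1 and Tbx21.

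The genes lie on 5 chromosomes of GRCm38, and RefSeq promoter windows of GRCm38.p6, which run from 250 bases before to 50 after a start site, were found for 6 of the 7. The windows of Cma1 and Itgam are shown because both genes differed between the genotype labels and each has 1 start in that table. The window of Cx3cr1 lies within a longer annotated transcript and is not shown. The 250 bases before the start of Cma1 (chr14:55944676-55944925, minus strand) and of Itgam (chr7:128062390-128062639, plus strand) read as follows, in lower case because no motif searched was found in them.
Cma1: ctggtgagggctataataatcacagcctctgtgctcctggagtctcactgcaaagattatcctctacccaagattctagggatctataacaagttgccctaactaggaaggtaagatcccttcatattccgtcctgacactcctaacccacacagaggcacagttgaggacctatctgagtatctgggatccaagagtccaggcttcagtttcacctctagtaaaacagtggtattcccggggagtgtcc
Itgam: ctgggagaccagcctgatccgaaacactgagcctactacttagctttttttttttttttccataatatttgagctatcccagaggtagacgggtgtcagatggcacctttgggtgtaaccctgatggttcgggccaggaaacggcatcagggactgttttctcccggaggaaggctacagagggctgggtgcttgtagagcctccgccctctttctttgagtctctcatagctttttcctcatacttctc
The motifs searched, on both strands, were CACCTG, the E2-box bound by ZEB factors, AGGTGTGA of T-box factors, a pair of GAAA with any 2 bases between them, bound by interferon regulatory factors, TGACTCA of AP-1 and TGTGGTT of RUNX factors. Of 32851 RefSeq windows of the same length, these were found in 20.2%, 1.28%, 3.44%, 5.2% and 5.27%. Among the 9 windows of the 6 genes, matches were found only in the window of 1 of the starts of Zeb2. It held 2 AP-1 matches, which begin at -189 and -132 relative to that start (chr2:45110450-45110476 and chr2:45110393-45110419, minus strand). They are shown in capitals with 10 bases on either side; the capitals of the upstream site spell TGACTCA on the other strand.
Zeb2 upstream site: cgcctagcctTGAGTCAagcagtctta
Zeb2 downstream site: tcaggagttaTGACTCAttttgaagat
A match is a description of these letters, and the libraries carry no measurement of binding.

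All 7 genes had their lowest CPM in WT injected, and 5 had their highest in Irf4-/- control. Among the 9674 genes that averaged 5 CPM or more, 34.9% were lowest in WT injected and 18.7% were highest in Irf4-/- control. CPM is compared here only between libraries. Cx3cr1 covered the widest range, 8.61-fold from its lowest to its highest library, followed by Klrg1 (3.84-fold), Cma1 (2.39-fold), Itgam (2.09-fold), S1pr5 (1.53-fold), Zeb2 (1.47-fold) and Spn (1.44-fold).

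Cx3cr1 (ENSMUSG00000052336, chr9:119901616-120069879, minus strand) encodes the receptor of fractalkine, a membrane-bound chemokine of inflamed endothelium. Its counts were 1442 in WT control and 459 in WT injected, against 3409 in Irf4-/- control and 3867 in Irf4-/- injected. Scaled to library size these were 68.6, 24.7, 213 and 208 CPM. Both Irf4-/- libraries lay far above both WT libraries, and the Irf4-/- libraries overlapped each other in their counting intervals (206 to 220 and 201 to 214 CPM).

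S1pr5 (ENSMUSG00000045087, chr9:21242912-21248443, minus strand), the sphingosine 1-phosphate receptor of NK cell egress, had another pattern. It stood at 520.1 CPM in WT control and 339.5 in WT injected, against 509 in Irf4-/- control and 495 in Irf4-/- injected, from 10931, 6306, 8152 and 9212 counts. WT injected was the low library, and each neighbouring pair among the other libraries overlapped in counting error.

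Klrg1 (ENSMUSG00000030114, chr6:122270596-122282882, minus strand) encodes an inhibitory lectin-like receptor of E-, N- and R-cadherin. Its level was 122 CPM in WT control and 70.2 in WT injected, against 269.6 in Irf4-/- control and 218 in Irf4-/- injected, from 2564, 1304, 4318 and 4051 counts. The order was the same as for Cx3cr1, and no neighbouring libraries overlapped.

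Itgam (ENSMUSG00000030786, chr7:128062640-128118491, plus strand) encodes CD11b, the alpha chain that pairs with the beta 2 chain CD18 and that is used to stage NK cells. It had 764 CPM in WT control and 515 in WT injected, against 1078 in Irf4-/- control and 917 in Irf4-/- injected, from 16057, 9562, 17262 and 17076 counts. The Irf4-/- libraries were again the higher ones, without overlap. Itgam shares 3450 exonic bases with the annotated gene Gm49368 on the same strand, which has no row in the table, so how such reads were counted is uncertain.

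Spn (ENSMUSG00000051457, chr7:127132232-127137823, minus strand) encodes CD43, a heavily glycosylated sialomucin that increases on mature NK cells. Its levels were 1279 CPM in WT control and 972 in WT injected, against 1398 in Irf4-/- control and 1349 in Irf4-/- injected, from 26891, 18061, 22388 and 25119 counts. WT injected stood below the other libraries, which lay close together.

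Cma1 (ENSMUSG00000022225, chr14:55941451-55944675, minus strand) encodes mast cell chymase 1, a granule serine protease. Its levels were 124 CPM in WT control and 90.1 in WT injected, against 216 in Irf4-/- control and 169.8 in Irf4-/- injected, from 2608, 1674, 3456 and 3162 counts. Both Irf4-/- libraries were above both WT libraries. Markers of mast cells and basophils, cells best known for chymases, summed to only 2.64 to 3.62 CPM over 10 genes, and Mcpt4, Tpsb2 and Tpsab1 had 0 counts in all 4 libraries.

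Zeb2 (ENSMUSG00000026872, chr2:44983632-45117395, minus strand), a zinc finger repressor that drives terminal maturation, had 235 CPM in WT control and 159.7 in WT injected, against 231 in Irf4-/- control and 205.5 in Irf4-/- injected, from 4945, 2967, 3702 and 3826 counts. WT injected was lowest, and the control libraries overlapped. The antisense gene Zeb2os overlaps its exons by 653 bases and had 13 to 30 counts per library. Whether the counting used strand is not given, so reads of the pair cannot be told apart.

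**Figure D1:**
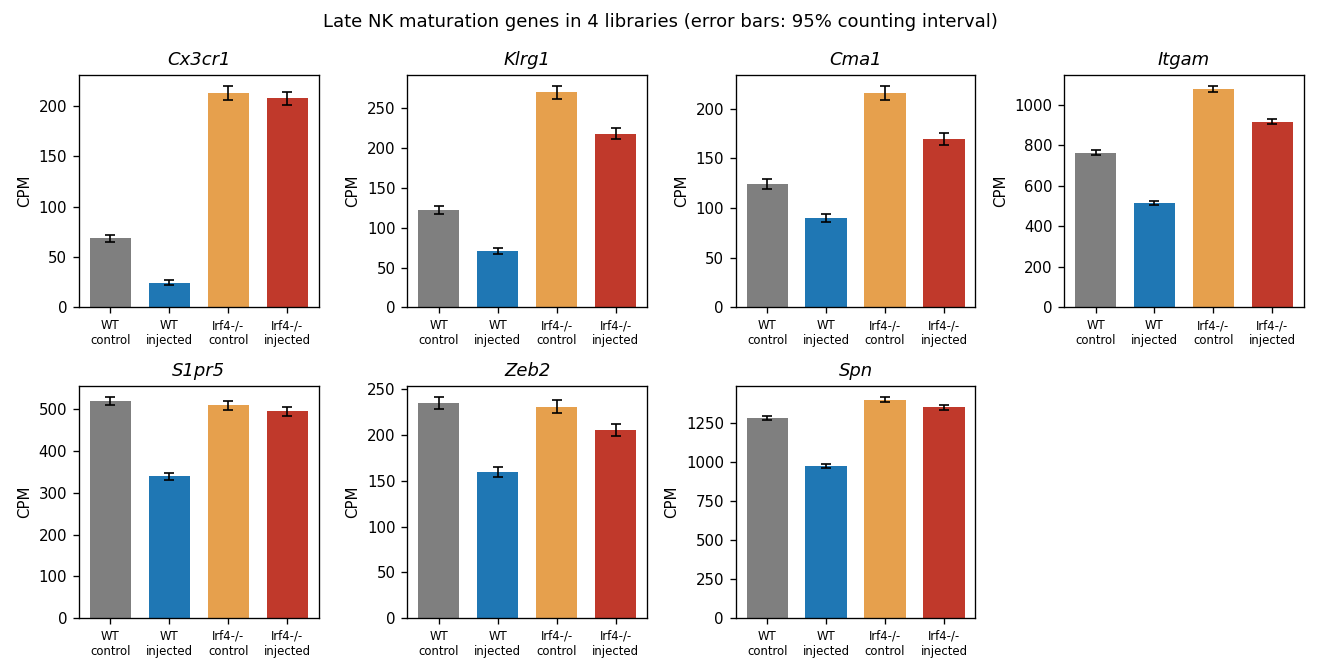
Level of each of the 7 late maturation genes in the 4 libraries, in CPM (vertical axis, from 0, with its own scale for each gene); bars are the value of 1 library and error bars are 95% counting intervals. WT injected (blue) is the lowest bar for all 7 genes, and Cx3cr1 spans 24.7 to 213 CPM.

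Levels of different genes were compared by FPKM, which accounts for gene length. Spn was the most abundant of the 7 in every library, with 340.4 FPKM in WT control and 259 in WT injected, against 377 in Irf4-/- control and 360.0 in Irf4-/- injected. In WT control it was followed by S1pr5 (207 FPKM), Itgam (158), Cma1 (115), Klrg1 (85.9), Zeb2 (25.7) and Cx3cr1 (18.3). In Irf4-/- control Itgam (226 FPKM) stood above S1pr5 (205), and Cx3cr1 (57.6) above Zeb2 (25.6). By FPKM among 16152 protein-coding genes Cx3cr1 ranked 3971 in WT control and 7057 in WT injected, but 1200 in Irf4-/- control and 1241 in Irf4-/- injected. Spn stayed between rank 134 and rank 195. The summed FPKM of the 7 genes was 951 in WT control and 658 in WT injected, against 1287 in Irf4-/- control and 1138 in Irf4-/- injected. Within that sum the share of Cx3cr1 went from 1.0% in WT injected to 4.89% in Irf4-/- injected.

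The genotype comparison asked how NK cells of mice labelled Irf4-/- differed from WT cells. Cx3cr1, Klrg1, Cma1 and Itgam rose with the genotype label, and for S1pr5, Zeb2 and Spn the test was not passed. In injected mice the log2 ratio of Irf4-/- to WT was 3.07 for Cx3cr1 (2.93 to 3.21), 1.63 for Klrg1 (1.54 to 1.72), 0.91 for Cma1 (0.83 to 1.0) and 0.83 for Itgam (0.80 to 0.87). It was 0.54 for S1pr5 (0.50 to 0.59), 0.47 for Spn (0.44 to 0.50) and 0.36 for Zeb2 (0.29 to 0.43). All 7 intervals were above 0, as were 27.8% of 9685 genes. Cx3cr1 and Klrg1 were at least 2-fold higher, as were 1.14% of the genes. The median of the 7 was 0.83 and that of all genes 0.00.

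Control mice gave smaller ratios, and not for all of the genes. The log2 ratio was 1.63 for Cx3cr1 (1.54 to 1.72), 1.14 for Klrg1 (1.07 to 1.22), 0.80 for Cma1 (0.72 to 0.87), 0.50 for Itgam (0.47 to 0.53) and 0.13 for Spn (0.10 to 0.15). S1pr5 stood at -0.03 (-0.07 to 0.01) and Zeb2 at -0.03 (-0.09 to 0.04), so no difference of either was detectable at this depth. The intervals of 5 of the 7 were above 0, against 15.1% of 9659 genes, and Cx3cr1 and Klrg1 were at least 2-fold higher, against 0.694%. The median of the 7 was 0.50 and that of all genes -0.02. Cma1, Cx3cr1, Itgam, Klrg1 and Spn were above 0 in both pairs of libraries, which held for 7.67% of genes, and Cx3cr1 and Klrg1 were at least 2-fold higher in both, which held for 0.444%.

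**Figure D2:**
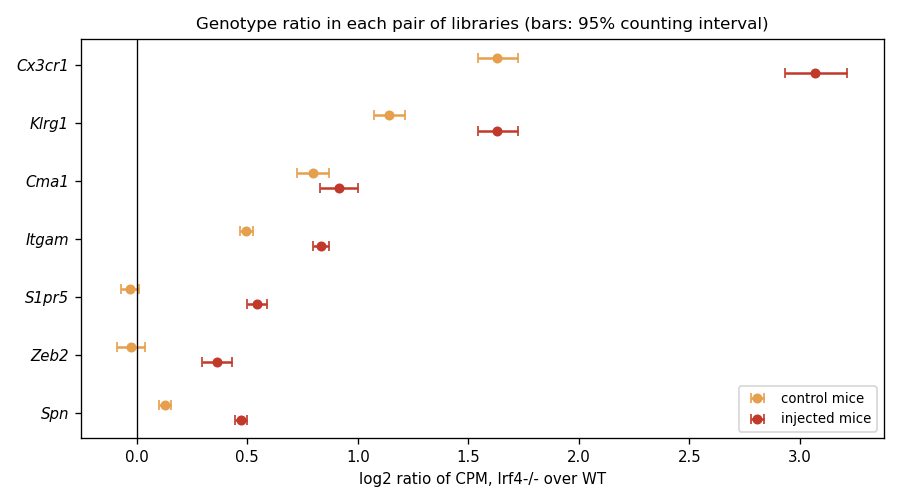
Log2 ratio of CPM of Irf4-/- to WT (horizontal axis) for each of the 7 genes, with control mice in orange and injected mice in red; points are the ratio of 2 libraries and bars are 95% counting intervals. Cx3cr1 lies farthest from 0 in both pairs, and S1pr5 and Zeb2 lie at -0.03 in control mice.

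The test across all 4 libraries was edgeR's quasi-likelihood test with genotype and injection as additive terms, adjusted by Benjamini-Hochberg over 11998 genes. It has 1 residual degree of freedom, and its p-values reflect only the departure of these libraries from additivity, and that spread may be technical. In that test 4 of the 7 genes rose with the genotype label, against 1.22% of the genes tested, and none fell, against 0.258%. Cx3cr1 was up by a log2 value of 2.32 (SE 0.248, adjusted p = 0.000903), Klrg1 by 1.39 (SE 0.123, adjusted p = 0.00023), Cma1 by 0.86 (SE 0.0973, adjusted p = 0.00128) and Itgam by 0.67 (SE 0.127, adjusted p = 0.0267). For S1pr5 the edgeR value was 0.26 (SE 0.139, adjusted p = 0.586), for Zeb2 0.18 (SE 0.114, adjusted p = 0.702) and for Spn 0.31 (SE 0.132, adjusted p = 0.448). Without WT injected the genotype values are those of the control pair alone, 1.63, 1.14, 0.80 and 0.50 for the 4 genes that rose, and have no test. Those of S1pr5 and Zeb2 then change sign, to -0.03 each. With the injection term left out none of the 4 genes passed, at an adjusted p of 0.138 to 0.621 in edgeR.

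Markers of other cells that carry these genes were read beside the genotype values. Foxp3, the factor of regulatory T cells, some of which carry KLRG1, had 6 counts in WT control and 8 in WT injected, against 44 in Irf4-/- control and 38 in Irf4-/- injected. It rose with the genotype label (2.73, SE 0.494, adjusted p = 0.0213 by edgeR). The 5 markers of that list summed to 52.5 to 67.9 CPM, and Cd3e, a chain of the T cell receptor complex, had 197, 98, 83 and 113 counts. Markers of patrolling monocytes, which carry CX3CR1 and CD43, summed to 83.3 CPM in WT control and 93.0 in WT injected, against 70.6 in Irf4-/- control and 69.9 in Irf4-/- injected over 7 genes, Spn and Cx3cr1 left out. Of the 6 tested among these 7 markers, 1 fell with the genotype label and 0 rose, against 0.258% and 1.22% of all genes. Markers of type 1 innate lymphoid cells, which are NK1.1-positive too, were summed over 8 genes. The sum was 167 CPM in WT control and 336 in WT injected, against 229.9 in Irf4-/- control and 385 in Irf4-/- injected. Much of it was Il7r, the interleukin-7 receptor gene, which is also among the early maturation genes below. In the same order of libraries Il7r had 61.9, 199.7, 63.4 and 144.2 CPM. Of the 8 genes Cxcr6 and Tnfsf10 rose with the genotype label, as did 1.22% of all genes tested. The part of these cells in the values of Klrg1 and the other genes was not tested. In bulk libraries, fewer cells of a type and less RNA per cell cannot be told apart.

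The injection comparison set NK cells of mice that had received B16-F10 cells against those of mice that had not. In WT mice all 7 genes were lower in the injected library, Cx3cr1 most. The log2 ratio of injected to control in WT was -1.47 for Cx3cr1 (-1.63 to -1.32), -0.80 for Klrg1 (-0.89 to -0.70), -0.62 for S1pr5 (-0.66 to -0.57) and -0.57 for Itgam (-0.61 to -0.53). It was -0.56 for Zeb2 (-0.62 to -0.49), -0.46 for Cma1 (-0.55 to -0.37) and -0.40 for Spn (-0.42 to -0.37). All 7 intervals were below 0, as were 32.6% of 9638 genes, and Cx3cr1 was at least 2-fold lower, as were 0.83% of genes. The median of the 7 was -0.57 and that of all genes -0.02.

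In Irf4-/- mice the ratios were nearer to 0. The log2 ratio there was -0.35 for Cma1 (-0.42 to -0.28), -0.31 for Klrg1 (-0.37 to -0.25), -0.23 for Itgam (-0.26 to -0.20), -0.17 for Zeb2 (-0.24 to -0.10) and -0.05 for Spn (-0.08 to -0.03). For S1pr5 (-0.04, -0.08 to 0.0023) and Cx3cr1 (-0.04, -0.10 to 0.03) the interval held 0, and no difference was detectable at this depth with the scaling used. Scaling by median of ratios, upper quartile or total moved S1pr5 to -0.044, -0.046 and -0.055, with its interval then below 0. The intervals of 5 of the 7 were below 0, against 18.9% of 9697 genes, and none was at least 2-fold lower, against 0.217%. The median of the 7 was -0.17 and that of all genes 0.01. Cma1, Itgam, Klrg1, Spn and Zeb2 were below 0 in both genotypes, which held for 11.2% of genes.

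None of the 7 genes passed the edgeR quasi-likelihood test for injection after Benjamini-Hochberg adjustment, in which 0.392% of genes fell and 0.333% rose. The values were -0.69 for Cx3cr1 (SE 0.241, adjusted p = 0.229), -0.55 for Klrg1 (SE 0.121, adjusted p = 0.0761), -0.40 for Cma1 (SE 0.0968, adjusted p = 0.0955) and -0.40 for Itgam (SE 0.126, adjusted p = 0.189). They were -0.36 for Zeb2 (adjusted p = 0.187 by edgeR), -0.33 for S1pr5 (adjusted p = 0.318) and -0.22 for Spn (adjusted p = 0.474). All but Spn had an unadjusted p under 0.05, as had 6.84% of genes in the same direction. DESeq2 and limma-voom passed 0 of the 7 as well, whereas edgeR without a filter on low counts passed 5 of them. Without WT injected the injection values are those of the Irf4-/- pair alone, -0.35 to -0.04, with no test.

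**Figure D3:**
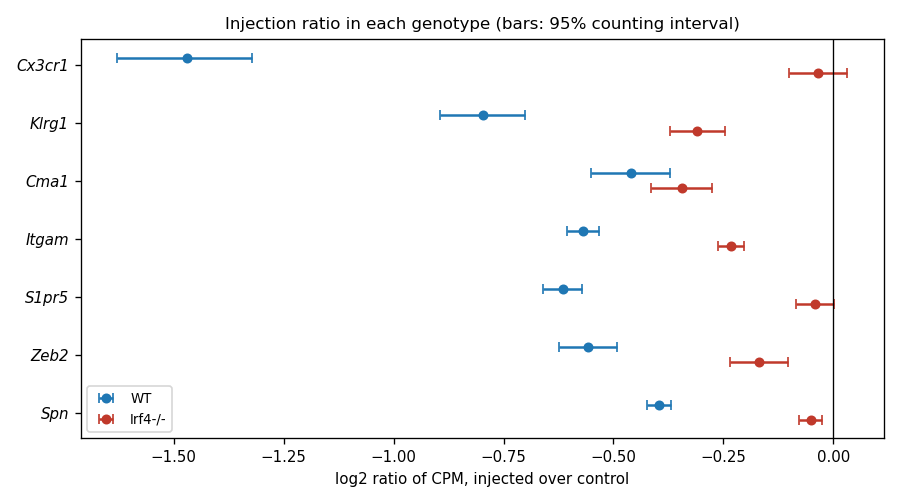
Log2 ratio of CPM of injected to control mice (horizontal axis) for each of the 7 genes, with WT in blue and Irf4-/- in red; points are the ratio of 2 libraries and bars are 95% counting intervals. All 7 WT points lie to the left of the Irf4-/- points of the same gene.

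The difference between these responses, Irf4-/- minus WT, was above 0 for all 7 genes by its counting interval with the scaling used, as it was for 26.0% of genes. It was 1.43 for Cx3cr1 (1.27 to 1.60), 0.57 for S1pr5 (0.51 to 0.64), 0.49 for Klrg1 (0.37 to 0.60) and 0.39 for Zeb2 (0.30 to 0.48). Spn and Itgam followed at 0.34 each (0.31 to 0.38 and 0.29 to 0.38), and Cma1 was lowest at 0.12 (0.00309 to 0.23). Scaling by median of ratios, upper quartile or total moved Cma1 to 0.102, 0.089 and 0.101, and its interval then held 0. Cx3cr1 had rank 8 of 9674 genes in this difference and Cma1 rank 3602. The difference has no test, since it leaves no residual degrees of freedom. For all 7 genes it needs all 4 libraries, WT injected among them, and cannot be formed without any of them. Each library enters 2 of the 4 ratios, so the ratios share their libraries and are not independent of each other.

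Monocyte and macrophage markers were highest in the library where the 7 genes were lowest. Summed over 13 genes they were 36.2 CPM in WT control and 79.5 in WT injected, against 57.8 in Irf4-/- control and 67.6 in Irf4-/- injected. Vcam1, an adhesion molecule of splenic macrophages, rose with injection (2.0) and Lyz2, the lysozyme gene of myeloid cells, fell by 1.26 (log2) in edgeR's test (adjusted p = 0.0172 and 0.0198). Neutrophil markers, of cells that also carry CD11b, summed to only 1.28 to 2.85 CPM over 8 genes, with Ly6g and Retnlg at 0 in all 4 libraries. Other marker lists were lowest in WT injected, as the 7 genes were. In the order WT control, WT injected, Irf4-/- control, Irf4-/- injected, the summed CPM was 37.3, 18.9, 43.5 and 105 for 6 erythroid markers, 75.0, 58.5, 81.9 and 70.04 for 8 dendritic cell markers, and 311, 270.0, 333 and 338 for 9 B cell markers. The 3 erythroid markers that averaged 5 CPM or more were all at least 2-fold higher in Irf4-/- than in WT among injected mice. Among all genes 1.14% were. Cd74, a B cell marker that chaperones MHC class II, rose with the genotype label (0.55, adjusted p = 0.0283 by edgeR). The B cell sum was led by the immunoglobulin gene Ighm and hides most of its list. Of 6 B cell markers that averaged 5 CPM or more, 3 were below 0 by injection in Irf4-/- mice and 1 above. In WT mice 5 were below 0 and 0 above. Over all genes 18.9% and 32.6% were below 0 in these pairs. The part of all these cells in the genotype and injection values of the 7 genes was not tested.

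Ratios of transcripts within a library do not depend on its scaling. Itgam to Cd27, the marker pair that stages NK cells, was 1.46 in WT control (1.41 to 1.52) and 1.05 in WT injected (1.01 to 1.10), against 2.56 in Irf4-/- control (2.45 to 2.68) and 1.86 in Irf4-/- injected (1.79 to 1.94), as a ratio of FPKM. The ratio was higher under the Irf4-/- label by 1.75-fold in control and 1.77-fold in injected mice. Klrg1 to Kit, the stem cell factor receptor of early NK cells, was 5.20 in WT control and 1.53 in WT injected, against 10.2 in Irf4-/- control and 4.71 in Irf4-/- injected. S1pr5 to Cxcr4, the chemokine receptor that retains immature cells in bone marrow, was 1.71 in WT control and 0.681 in WT injected, against 1.80 in Irf4-/- control and 3.23 in Irf4-/- injected. This was the only ratio of those plotted that was higher in the injected library of Irf4-/- mice than in their control. Between those libraries the log2 ratio of injected to control was -0.04 for S1pr5 and -0.89 for Cxcr4, so the rise lay in the lower Cxcr4. Zeb2 to Zeb1, its paralog of earlier stages, was 2.92, 1.61, 2.98 and 2.65 in the same order of libraries, so that WT injected alone stood low.

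**Figure D4:**
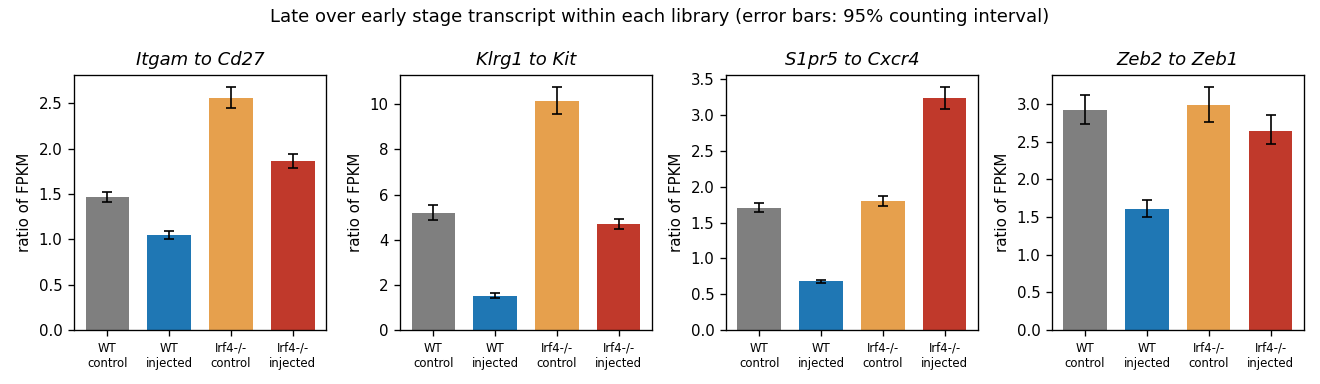
Ratio of the FPKM of a late gene to that of an early stage gene within each library (vertical axis, from 0, with its own scale in each panel); bars are the value of 1 library and error bars are 95% counting intervals. WT injected (blue) is the lowest bar in all 4 panels, and Itgam to Cd27 goes from 1.05 there to 2.56 in Irf4-/- control.

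Set against Ncr1, which encodes the NK cell receptor NKp46, Cx3cr1 was 0.0228 in WT control and 0.00912 in WT injected, against 0.0671 in Irf4-/- control and 0.0569 in Irf4-/- injected. Itgam to Itgb2, the gene of its beta 2 partner chain CD18, was 0.248, 0.216, 0.328 and 0.290 in that order, higher under the Irf4-/- label by 1.32-fold in control and 1.34-fold in injected mice. Cma1 to Gzmb, which encodes the killer protease granzyme B, was 0.353, 0.265, 0.530 and 0.632.

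The 4 genes that rose with the genotype label were set beside other genes of the maturation sequence. Of 14 other late maturation genes none rose or fell with either label by edgeR's test, and their median genotype value was 0.27 against 0.00 for all genes. In injected mice 10 of the 14 were above 0 by their counting interval and 3 below, and in control mice 12 were above and 2 below, where 27.8% and 15.1% of all genes were above 0. By genotype in injected mice Itgax, which encodes the integrin chain CD11c, was at 0.88, the galectin gene Lgals1 at 0.74 and the perforin gene Prf1 at 0.53, while Prdm1, the gene of the transcription factor BLIMP-1, was at -0.59. Of 12 early maturation genes none changed with the genotype label. With injection 0.333% of all genes rose in edgeR's test, and 3 of the 12 rose. These were Il7r, the interleukin-7 receptor, by 1.44 (adjusted p = 0.000559), Kit by 0.88 (adjusted p = 0.00304) and Emb, an adhesion molecule, by 0.73 (adjusted p = 0.0265). Their medians were 0.03 for genotype and 0.25 for injection. Cd27 was at -0.14 for genotype and 0.07 for injection.

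**Figure D5:**
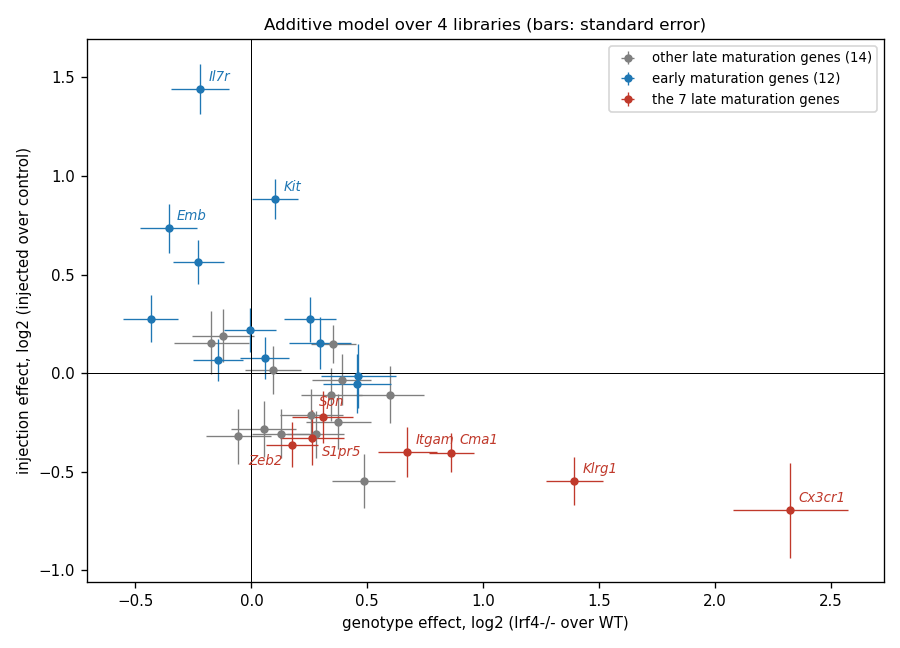
Genotype value (horizontal axis, log2 Irf4-/- over WT) against injection value (vertical axis, log2 injected over control) of edgeR's additive model for the 7 late maturation genes in red, 14 other late maturation genes in grey and 12 early maturation genes in blue; bars are standard errors. Cx3cr1 lies farthest to the right at 2.32, and Il7r is highest at 1.44.

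Of 11 transcription factors and regulators known to promote NK maturation, Zeb2 among them, none rose or fell in edgeR's test for either term. Tbx21, the gene of T-bet, had a log2 ratio by genotype of 0.69 in injected and -0.08 in control mice, Ikzf3 (Aiolos) 0.51 and -0.01, and Nfil3, a factor of early NK commitment, -0.65 and -0.29. Among 9 tested factors of early stages or known to hold maturation back, 1 fell with the genotype label, against 0.258% of all genes. It was Myb, a factor of progenitor cells, which fell by 0.63 (SE 0.123, adjusted p = 0.031 by edgeR). Id3, an inhibitor of E proteins, was at 1.53 in injected and 0.35 in control mice and did not pass (adjusted p = 0.266 by edgeR).

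Partners of the 7 genes were read by role, in lists that also hold some of the 7. Over all genes tested 1.22% rose and 0.258% fell with the genotype label in edgeR's test. Of 11 egress and homing receptors, Cx3cr1 and Cxcr6, the receptor of CXCL16, rose with the genotype label, Cxcr6 by 2.07 (SE 0.156, adjusted p = 7.89e-05 by edgeR), and none fell. Cxcr4 had a log2 ratio of -1.70 in injected and -0.11 in control mice, and S1pr1, the lymphocyte egress receptor, -0.39 and -0.43. Of 10 beta 2 integrins and partners, Itgam and Icam1, the gene of an integrin ligand, rose with the label, Icam1 by 0.58 (SE 0.110, adjusted p = 0.0267). The partner chain Itgb2 was at 0.26 (adjusted p = 0.584), with the test as before. Among 10 relatives of the member receptors none rose or fell. Of 6 tested genes of the chymase locus and the granule proteases only Cma1 rose, and Mcpt1, Mcpt2, Mcpt4, Ctsg and Gzmf had 0 counts in all 4 libraries.

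By the Euclidean distance between log2 CPM profiles, each centred on its own mean over the 4 libraries, S1pr5, Zeb2 and Spn lay within 0.132 to 0.193 of each other and Cma1 and Itgam within 0.221. Cx3cr1 was at least 1.09 from every other member. Among 9317 protein-coding genes the profile nearest to that of Cx3cr1 was Fkbp10 (distance 0.719), followed by Nhsl2 (0.845). For Klrg1 they were Stom (0.182) and Avil (0.253), for Cma1 Cyp51 (0.126) and Fry (0.131), and for Itgam Sgo1 (0.0932) and Gbp3 (0.0974). These likenesses rest on 4 libraries and are a description.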

How the data were processed

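Raw counts of reads per gene, as whole numbers, and FPKM values were deposited by the authors. TopHat, edgeR and the build mm10 are named in the submitters' processing notes. The counting tool, annotation and strand setting were not given in the sources used here. Per the labels' protocols, libraries were made with a SMARTER mRNA kit. Deposited FPKM equalled count over library total and a whole gene length, within 0.01 bp, in all 72455 cases where a count was present. Of the identifiers, 34490 matched a GENCODE symbol.

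Counts were scaled by TMM (edgeR 4.0.16, R 4.3.3). Ratios of CPM used a prior count of 2, exact (Clopper-Pearson) 95% intervals and, for calls, a 2-fold change at a mean of at least 5 CPM. The 95% interval of the difference of responses was a normal approximation from the counts. Each SE of the edgeR test was the size of the log2 value divided by the square root of its F statistic. The quasi-likelihood test (glmQLFit, glmQLFTest, two-sided, adjusted p under 0.05) took genes that reached 1 CPM in 2 or more libraries, with a prior of 9.62 degrees of freedom. Both steps were run on simulated counts that held a genotype effect only. Those counts had no injection effect and no departure from additivity, so the run cannot show how the steps behave with either. The members and lists were chosen with earlier results of these data known. Genes named besides the 7 are Irf4, list members that pass a test, up to 4 more per list by their ratio in injected mice, 2 nearest profiles for members that range over at least 1 log2 unit, and markers, of which a few list members are not reported here; Cd27 and some partners in ratios, the marker genes and Gm49368 were named outside that rule, after their values were seen. The alternatives tried were limma-voom (limma 3.58.1), DESeq2 1.42.0, a model without the other term, an adjusted p threshold of 0.1, other minimums and filters, scaling by total, upper quartile or median of ratios, a prior count of 0.5, and FPKM with a pseudocount of 0.1.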

Additional observations from a re-analysis of the deposited data

Results flagged for a closer look

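None of the 7 late maturation genes was flagged. In their lists, 12 of the genes reported here had ratios that pointed opposite ways between genotypes or between control and injected mice. The counting intervals excluded 0 in both, and none of these differences was tested. The share of all genes with such opposite ratios was not counted, so the 12 are a description. By injection in WT alone the interval was below 0 for 32.6% of genes. By injection, the log2 ratio in WT and then in Irf4-/- mice was -0.30 and 0.08 for Prf1, 0.56 and -0.26 for Prdm1, -0.40 and 0.18 for Itgax, and -0.45 and 0.42 for the chemokine gene Xcl1. It was -0.59 and 0.18 for Tbx21, -0.35 and 0.17 for Ikzf3, 0.15 and -0.22 for Nfil3, and 0.71 and -0.89 for Cxcr4. For the integrin adaptor gene Tln1 it was -0.31 and 0.10, for the CD94 gene Klrd1 0.24 and -0.11, and for Ncr1 -0.15 and 0.20. By genotype, the log2 ratio in control and then in injected mice was 0.21 and -0.34 for Gzmb, 0.23 and -0.59 for Prdm1, -0.0752 and 0.69 for Tbx21, -0.0405 and 0.37 for Tln1, and 0.11 and -0.25 for Klrd1. Each of these contrasts includes the WT injected library, which stood apart.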

How the results depend on the processing

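The number of members past each 2-fold rule for a pair of libraries was the same under every alternative run. Counts of members by interval were not rerun. The interval of S1pr5 by injection in Irf4-/- mice and that of Cma1 in the difference of responses depended on the scaling, as given above. Under all alternatives but 1, 4 members rose with the genotype label. With the other term left out 0 rose, and 3 genes in all rose and 2 fell; the cause was not tested. The injection calls moved most: 1 member fell with upper-quartile scaling (113 genes rose, 100 fell), 5 with no filter on low counts (305 and 299), 1 with a filter of 5 CPM (75 and 86), 4 with TMM factors from all genes (299 and 292), and 2 at an adjusted p under 0.1 (114 and 121), against 0 members and 40 and 47 genes in the main test; with the other term left out 0 genes rose and 0 fell. The prior degrees of freedom were 14, infinite, 11.8 and 96.8 in the first 4 of these and 9.62 in the main test. Genotype counts, 146 and 31, became 319 and 163 without the filter and 299 and 146 with TMM factors from all genes; with DESeq2 14 genes fell. Genes at least 2-fold higher and lower at a minimum mean of 1 CPM and then 20 CPM were 244 and 203, then 38 and 28, by genotype in injected mice (110 and 64 at 5 CPM), 160 and 58, then 16 and 4, in control mice (67 and 10), 328 and 215, then 34 and 28, by injection in WT (102 and 80), and 94 and 99, then 4 and 6, in Irf4-/- mice (13 and 21). No direction reversed under the alternatives that keep all 4 libraries. Leaving out a library leaves a single pair and no test; the genotype value of Cx3cr1 then ranged from 1.63 to 3.07, Klrg1 1.14 to 1.63, Cma1 0.80 to 0.91 and Itgam 0.50 to 0.83. Without WT injected or without Irf4-/- injected the values of S1pr5 and Zeb2, which had not passed the test, changed sign, from 0.26 and 0.18 to -0.03 each; with a control library left out they were 0.54 and 0.36. TMM factors from all genes and the left-out libraries were chosen after seeing the data. No paired analysis was possible because each group held 1 library. With no replicates, neither library preparation nor mouse can be told apart from the group.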
